A study of Homo sapiens with 25 samples.

Results

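The ZNF genes of chromosome 19 form the largest concentration of genes for C2H2 zinc finger proteins in the human genome. They were taken from the protein-coding genes that GENCODE release 44 places on that chromosome, as those with a symbol of ZNF followed by digits, with or without a letter suffix. This gave 246 of 19970 protein-coding genes, and 3 readthrough genes with a hyphenated symbol were left out. The data were chromatin immunoprecipitation sequencing (ChIP-seq) lists from MDA-MB-231, an established cell line from a triple-negative breast cancer. ChIP maps where a protein or a chemical mark on histones lies along DNA. The libraries came from cells with PML knocked down by a lentiviral short hairpin RNA and from control cells, with 2 libraries for each target and condition, and 3 PML libraries whose titles give no condition. The labels do not say which hairpin or control vector was used, or whether the knockdown cells were a pool or a clone. The targets used here were PML, lamin B1 (LMNB1), and histone H3 carrying H3K9me3, H3K4me3 or H3K27ac.

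Most C2H2 zinc finger proteins of this chromosome carry a KRAB domain, which recruits TRIM28 (KAP1). TRIM28 in turn brings SETDB1, which writes H3K9me3, the mark of heterochromatin, and HP1 proteins that read it. Many of these proteins bind transposable elements and silence them, and their genes arose by local duplication, so they sit in clusters of related copies. The clusters are themselves known to carry H3K9me3 over gene bodies while their promoters stay marked as active. PML is the organiser of PML nuclear bodies and lamin B1 belongs to the lamina that lines the nucleus. H3K4me3 marks promoters that can fire and H3K27ac marks active promoters and enhancers.

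Neighbouring ZNF starts less than 500 kb apart were joined, and a group of at least 5 genes was called a cluster. The 10 clusters held 232 of the genes and 14 genes lay scattered. They are numbered along the chromosome: cluster 1 runs from ZNF554 to ZNF77, cluster 2 from ZNF414 to ZNF846, cluster 3 from ZNF653 to ZNF791, cluster 4 from ZNF101 to ZNF254 and cluster 5 from ZNF302 to ZNF792. Cluster 6 runs from ZNF565 to ZNF573, cluster 7 from ZNF575 to ZNF180, cluster 8 from ZNF175 to ZNF331, cluster 9 from ZNF628 to ZNF835 and cluster 10, the last before the end of the long arm, from ZNF264 to ZNF446. Cluster 10 was the largest, with 43 genes starting between chr19:57191500 and chr19:58476352 (hg38). Cluster 4 was the longest, with 37 genes over 4.42 Mb.

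A gene was placed in a domain of PML, LMNB1 or H3K9me3 when its start (the canonical transcript's first base) lay in it. Its promoter, the start with 1 kb on either side, was called marked when it touched an H3K4me3 or H3K27ac peak. Each target and condition has 1 list, and the peaks were called on both replicates together, while the sources do not say how the replicates entered the domain lists. The comparisons therefore have no replicate check and no test, and a gene missing from a list fell below the authors' threshold there. As the cells were profiled in bulk, fewer cells with a mark and less of it per cell cannot be told apart. Read depth is unknown. The PML domain list has 1 version only, and whether PML sits differently in knockdown cells was not analysed here.

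Promoters that carry the main contrasts are shown first, from RefSeq (GRCh38.p14), 250 bases before the start to 50 after it, read 5′ to 3′ along the gene, with CpG dinucleotides in capitals. ZNF317 (chr19:9140147-9140446 on the plus strand) and ZNF431 (chr19:21141790-21142089 on the plus strand) had the highest control H3K4me3 folds among genes in an H3K9me3 domain of both lists. ZNF530 (chr19:57599635-57599934 on the plus strand) and ZNF17 (chr19:57410911-57411210 on the plus strand) had the highest H3K27ac folds among genes with a peak in the knockdown list only. ZNF208 (chr19:22010894-22011193 on the minus strand) and ZNF257 (chr19:22052234-22052533 on the plus strand) are the first genes of cluster 4 with no promoter peak in any list. The last 4 were picked for display after their values were seen.
ZNF317: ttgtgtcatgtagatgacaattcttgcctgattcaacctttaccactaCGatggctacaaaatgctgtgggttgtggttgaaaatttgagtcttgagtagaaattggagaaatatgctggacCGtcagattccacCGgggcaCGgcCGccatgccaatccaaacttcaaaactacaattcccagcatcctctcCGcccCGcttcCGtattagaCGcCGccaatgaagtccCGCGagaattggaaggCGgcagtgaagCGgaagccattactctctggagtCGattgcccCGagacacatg
ZNF431: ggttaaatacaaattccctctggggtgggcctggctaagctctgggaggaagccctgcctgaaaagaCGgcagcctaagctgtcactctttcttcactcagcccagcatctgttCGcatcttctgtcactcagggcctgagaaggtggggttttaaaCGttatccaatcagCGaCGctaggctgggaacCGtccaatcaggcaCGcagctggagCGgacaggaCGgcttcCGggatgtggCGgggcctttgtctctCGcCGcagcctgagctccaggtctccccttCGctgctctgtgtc
ZNF530: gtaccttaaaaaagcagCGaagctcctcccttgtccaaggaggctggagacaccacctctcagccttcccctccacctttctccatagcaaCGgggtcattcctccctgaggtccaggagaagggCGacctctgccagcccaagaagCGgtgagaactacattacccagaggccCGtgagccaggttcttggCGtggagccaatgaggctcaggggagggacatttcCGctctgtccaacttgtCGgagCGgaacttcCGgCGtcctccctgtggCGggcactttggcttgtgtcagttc
ZNF17: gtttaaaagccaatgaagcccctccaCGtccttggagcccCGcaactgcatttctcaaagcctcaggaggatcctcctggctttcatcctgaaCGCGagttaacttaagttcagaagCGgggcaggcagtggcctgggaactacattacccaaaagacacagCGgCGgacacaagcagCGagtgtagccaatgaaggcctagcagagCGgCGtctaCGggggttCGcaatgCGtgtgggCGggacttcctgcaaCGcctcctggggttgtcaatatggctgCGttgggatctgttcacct
ZNF208: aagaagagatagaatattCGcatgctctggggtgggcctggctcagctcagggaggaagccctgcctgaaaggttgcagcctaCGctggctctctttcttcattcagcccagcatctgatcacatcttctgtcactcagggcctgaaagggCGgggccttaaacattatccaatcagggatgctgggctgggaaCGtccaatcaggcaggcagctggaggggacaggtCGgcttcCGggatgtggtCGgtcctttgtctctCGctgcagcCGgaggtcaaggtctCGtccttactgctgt
ZNF257: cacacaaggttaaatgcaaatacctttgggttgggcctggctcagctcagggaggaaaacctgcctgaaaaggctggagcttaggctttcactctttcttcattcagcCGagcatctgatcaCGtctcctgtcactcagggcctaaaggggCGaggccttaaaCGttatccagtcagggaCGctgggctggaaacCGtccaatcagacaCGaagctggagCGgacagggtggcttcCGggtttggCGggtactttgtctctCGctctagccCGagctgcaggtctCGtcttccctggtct

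The promoters of ZNF317 and ZNF17 hold 16 CpG dinucleotides each, that of ZNF431 holds 14, that of ZNF257 13, that of ZNF530 12 and that of ZNF208 10. The unmarked ZNF208 promoter is 82.8% identical to the marked ZNF431 promoter over a global alignment, and the unmarked ZNF257 promoter is 79.8% identical to it. ZNF530 and ZNF17, which lie in another cluster, share 58.3% with each other.

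A larger share of the ZNF genes than of all protein-coding genes lay in domains of PML, LMNB1 and H3K9me3 and had marked promoters. In PML domains lay 163 of the 246 starts (66.3%), against 13.1% of all protein-coding genes. H3K9me3 domains held 144 starts (58.5%) in knockdown and 205 (83.3%) in control, against 8.6% and 10% of all genes. LMNB1 domains held 76 starts (30.9%) in knockdown and 105 (42.7%) in control, against 11% and 12.4% of all genes. H3K4me3 marked 211 promoters (85.8%) in each list, against 63.7% of all genes in knockdown and 61.8% in control. H3K27ac marked 194 promoters (78.9%) in knockdown and 184 (74.8%) in control, against 53.7% and 50.8% of all genes. ZNF genes on other chromosomes, 263 in number, had like shares of marked promoters (H3K4me3 85.2% in knockdown and 84.8% in control) but only 7.22% started in PML domains, and 17.1% in knockdown and 11.0% in control in H3K9me3 domains. The other 1230 genes of chromosome 19 had 10.7% in PML domains. Those that start inside the cluster spans were closer to the ZNF genes in domains. Of these 107 genes, 12 with other zinc finger names, 52 lay in PML domains. H3K9me3 domains held 53 of the 107 in knockdown and 73 in control, and LMNB1 domains 22 in knockdown and 42 in control. H3K4me3 marked 47 of their promoters in knockdown and 46 in control.

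**Figure D1:**
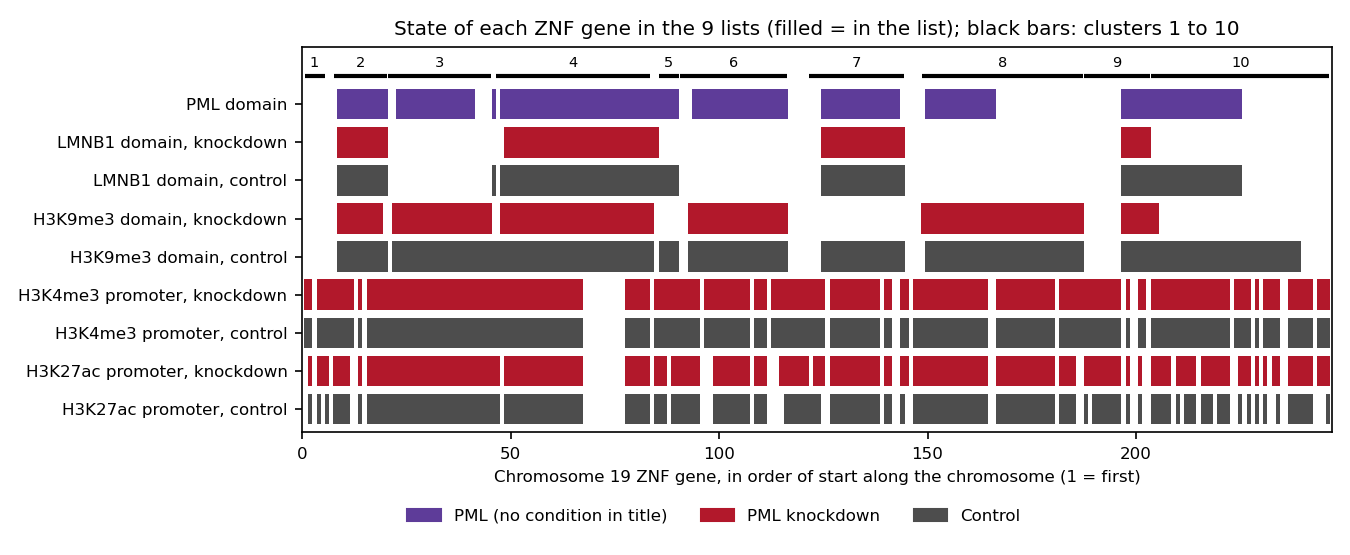
Each column is 1 of the 246 ZNF genes in chromosome order and each row 1 list, with filled cells for genes in that list and black bars for clusters 1 to 10. The H3K9me3 rows differ by blocks of neighbouring genes in clusters 5, 7 and 10 and by single genes elsewhere, while the H3K4me3 rows hold the same 211 genes.

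PML, lamin B1 and H3K9me3 combined in few ways over these genes. With the PML list, which has no condition, and the control lists of LMNB1 and H3K9me3, 103 starts lay in domains of all 3 targets, 59 lay in PML and H3K9me3 domains with no LMNB1 domain, 42 lay in H3K9me3 domains alone and 40 lay in none. The other 2 combinations seen held 1 gene each. Of the 163 starts in PML domains, 162 also lay in a control H3K9me3 domain. The same held for 1206 of 2612 starts in PML domains over all protein-coding genes (46.2%). Over the other genes of chromosome 19 it held for 124 of 131 (94.7%), so this overlap was not particular to the ZNF genes. The combinations followed the clusters. Clusters 2, 4 and 5 lay almost whole in all 3, with 12 of 13, 36 of 37 and 5 of 5 genes in both PML and control LMNB1 domains. Clusters 3 and 6 had 19 of 25 and 23 of 26 genes in PML domains and none in LMNB1 domains of either list. Cluster 8 had 17 of 39 genes in a PML domain, none in an LMNB1 domain, and 39 in knockdown and 38 in control in an H3K9me3 domain. Cluster 1, with 5 genes, lay in no domain of any list.

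Single genes at domain edges show how sharply the lists cut a cluster. In cluster 3, ZNF627 started 3.52 kb outside a PML domain. In cluster 10, ZNF776 started 15.2 kb inside the PML domain, and the next gene, ZNF586, started 3.68 kb outside the control LMNB1 domain that ends at nearly the same place. In cluster 6, ZNF566 started 5.44 kb outside a PML domain. The bounds of PML domains fall on multiples of 9 kb and those of control LMNB1 domains on multiples of 17 kb, so each gap in this paragraph except that of ZNF776 is smaller than 1 step.

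The H3K9me3 domains of the knockdown list left out whole clusters and kept others. Of 205 starts in a control H3K9me3 domain, 143 were also in a knockdown domain and 62 (30.2%) were in the control list only. Over all protein-coding genes that share was 48%, so the share of the ZNF genes lay below the background share, and the other genes of chromosome 19 had a share of 32.3%. ZNF175 alone was in the knockdown list only (1 of the 41 starts outside control domains, against 3.78% of all such genes). The knockdown domain over cluster 8 begins further towards the centromere than the control domain, and ZNF175 started 179 kb outside the control domain.

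All but 3 of the 62 control-only genes came from 3 clusters. In cluster 7, 0 of 23 genes lay in a knockdown domain, against 20 in a control domain. The cluster 7 genes that left include ZNF224, a KRAB repressor, and the neighbouring copies ZNF221, ZNF155, ZNF45 and ZNF283. In cluster 10, 2 of 43 genes (ZNF264 and ZNF805) lay in a knockdown domain, against 36 in a control domain. In cluster 5, 0 of 5 genes (ZNF302, ZNF181, ZNF599, ZNF30 and ZNF792) lay in a knockdown domain, against 5 in a control domain. An alternative chosen after seeing the data took the same number of domains from both lists by score, which shortened the control list only. There, cluster 5 had 0 genes in knockdown and 0 in control, so its difference was not seen. Clusters 7 and 10 kept theirs, with 20 and 34 control-only genes. The cut fell at a control score of 21.6, just below the 22.5 of the domain of cluster 7. The remaining 3 were ZNF333, a scattered gene that was in neither list under the same alternative, and ZNF846 and ZNF101, which sit at domain edges. ZNF101 started 1.16 kb outside the knockdown domain and 3.84 kb inside the control domain. ZNF846 started 3.74 kb outside the knockdown domain and 6.26 kb inside the control domain. The bounds of H3K9me3 domains fall on multiples of 35 kb in knockdown and 23 kb in control, so neither of these edge genes can be told from a difference in resolution. Clusters 3, 4, 6, 8 and 9 kept 24 of 24, 36 of 37, 24 of 24, 38 of 38 and 7 of 7 of their control-domain genes, and cluster 2 kept 11 of 12.

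**Figure D2:**
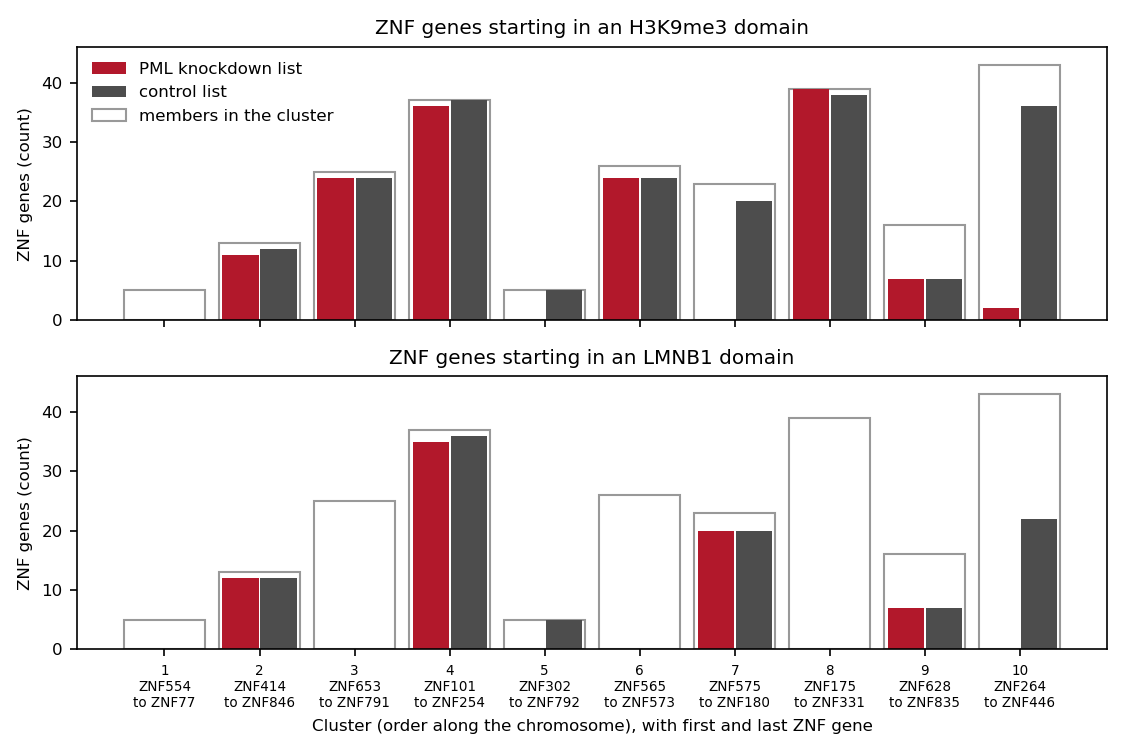
Bars give the number of ZNF genes per cluster that start in an H3K9me3 domain (top) or an LMNB1 domain (bottom), with the knockdown list in red left of the control list in grey, inside an outline of the cluster's size. H3K9me3 bars differ by 5 genes or more in clusters 5, 7 and 10 and by 1 gene in clusters 2, 4 and 8, and LMNB1 bars differ by 5 or more in clusters 5 and 10 and by 1 in cluster 4.

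LMNB1 domains differed between the lists in fewer clusters. Of 105 starts in a control LMNB1 domain, 76 were also in a knockdown domain and 29 (27.6%) were in the control list only. That control-only share was 16.6% over all genes in that position. Over the other genes of chromosome 19 it was 47.3% (52 of 110), so the share of the ZNF genes lay between these. No ZNF gene was in the knockdown list only (background 0.754%). The 29 were 22 genes of cluster 10, the 5 of cluster 5, ZNF14 at the start of cluster 4, and ZNF333. ZNF14 lay 44.9 kb outside the knockdown LMNB1 domain and stayed in an H3K9me3 domain of both lists. Cluster 7 kept all 20 of its LMNB1 genes in the knockdown list, where it had no H3K9me3 gene. Of the 62 genes that were in an H3K9me3 domain of the control list only, 21 kept an LMNB1 domain, 26 had one in the control list only and 15 had none in either list. For the 143 genes in an H3K9me3 domain of both lists, the same counts were 54, 3 and 86. This cross was not counted over all genes, and it rests on few domains because neighbouring genes share them.

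How often H3K9me3 was kept differed between the combinations of PML and LMNB1. ZNF genes in PML and H3K9me3 domains without LMNB1 kept H3K9me3 in 59 of 59 cases, against 84 of 121 over all protein-coding genes (69.4%). ZNF genes in PML, LMNB1 and H3K9me3 domains kept it in 57 of 103 cases (55.3%), against 414 of 1085 over all genes (38.2%). ZNF genes in H3K9me3 domains alone kept it in 27 of 42 cases (64.3%), against 437 of 609 over all genes (71.8%). The other genes of chromosome 19 had another order, with 14 of 23, 69 of 101 and 21 of 30 kept in these 3 classes. These counts rest on few domains, since neighbouring genes share 1: the control list has 17 H3K9me3 domains on chromosome 19, and 10 of them hold ZNF starts. Genes are therefore not independent, and no test was made.

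The H3K9me3 domains that went missing on chromosome 19 were among the low-scoring ones of the control list. The score is the authors' value for a domain and the lists are not on a common scale: the median score was 15.0 over the knockdown H3K9me3 list and 27.6 over the control list. On chromosome 19, the 6 control H3K9me3 domains with no overlap in the knockdown list had scores between 14.3 and 22.5. The domain of cluster 7 was the highest of these at 22.5, and that of cluster 5 had 18.4. The lowest-scoring domain that was kept had 22.4, so the scores of kept and missing domains touch. The domain of cluster 4, at 255.8, was the highest-scoring and 99.9% of its length was kept. The domain of cluster 10 went against this order, with a score of 57.7, above the 36.4 of cluster 3 and the 47.0 of cluster 6, yet 50.6% of its length was kept against 100% in those. LMNB1 domains with no overlap in the knockdown list scored between 18.0 and 26.1, a range that also holds a kept domain with a score of 23.2. The LMNB1 domain over cluster 10 and part of cluster 9 scored 54.8 and kept 57.1% of its length. Whether signal fell in the missing domains or only crossed the caller's threshold was not tested, because the lists hold no signal outside domains.

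**Figure D3:**
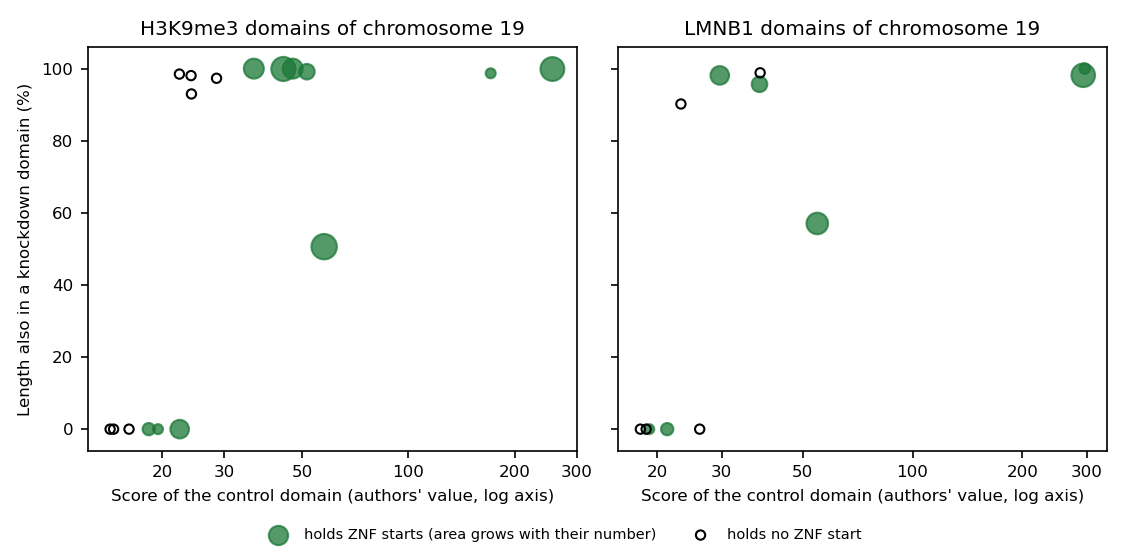
Each point is a control domain of chromosome 19, with its score on a log axis and the percent of its length that also lies in a knockdown domain, for H3K9me3 (left) and LMNB1 (right). Points lie at 0% or at 90.2% and above, apart from the domain of cluster 10 at 50.6% for H3K9me3 and 57.1% for LMNB1.

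Over cluster 10, the H3K9me3 and LMNB1 domains ended earlier in knockdown than in control. The control H3K9me3 domain runs from chr19:56189001 to chr19:58305000 and also covers 7 genes of cluster 9. Measured from its start, the knockdown H3K9me3 domain ended at 1071 kb and the control one at 2116 kb. The knockdown LMNB1 domain ended at 901 kb, before the first gene of the cluster, and the control LMNB1 domain at 1577 kb. The PML domain ended at 1573 kb, close to the control LMNB1 end. The 43 genes thus fall into 22 under PML and control LMNB1, of which 2 kept H3K9me3, then 14 with control H3K9me3 alone, of which none kept it, then 7 beyond all domains. So the H3K9me3 domain of the knockdown list stopped inside the PML domain, and the genes it left lay on both sides of the PML border.

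Promoter marks over the same 43 genes differed less than the domains. H3K4me3 marked the same 37 promoters in both lists. H3K27ac marked 33 in knockdown and 27 in control, and the 27 are among the 33. ZNF274, which binds the 3′ ends of other ZNF genes and recruits SETDB1 there, had an H3K27ac fold of 54.2 in knockdown and 40.9 in control. ZNF587 and ZNF417, closely related repressors of endogenous retroviruses, had H3K27ac folds of 29.9 and 12.7 in knockdown, against 27.2 and 6.84 in control. ZNF8, at the far edge of the control domain, had the highest control H3K4me3 fold of the family, with 93.2 in knockdown and 71.6 in control. ZNF154, ZNF587B, ZNF814, ZNF135, ZNF329 and ZNF132 had no promoter peak in any list.

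**Figure D4:**
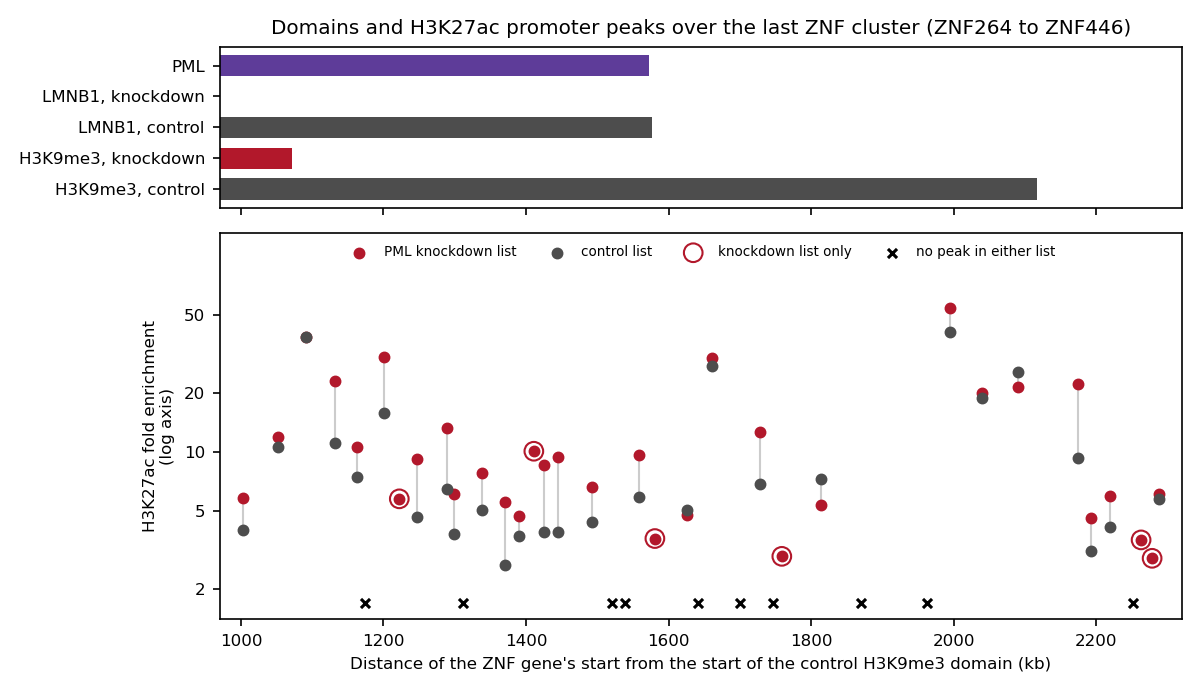
Top, the extents of the 5 domain lists over cluster 10, in kb from the start of the control H3K9me3 domain, with the knockdown LMNB1 row empty because that domain ended at 901 kb. Bottom, the H3K27ac fold of each ZNF promoter there on a log axis, in red for the knockdown list and grey for the control list, with rings for the 6 promoters marked in the knockdown list only and crosses for those with no H3K27ac peak.

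Most ZNF promoters had an H3K4me3 peak inside as well as outside H3K9me3 domains. In the knockdown lists, 121 of 144 starts in H3K9me3 domains (84.0%) had an H3K4me3 peak, against 90 of 102 outside (88.2%). In the control lists, 173 of 205 starts in H3K9me3 domains (84.4%) had one, against 38 of 41 outside (92.7%). Other protein-coding genes in H3K9me3 domains had one in 33.0% of cases in knockdown and 18.8% in control. H3K27ac was on 112 of 144 ZNF promoters in H3K9me3 domains in knockdown (77.8%) and 153 of 205 in control (74.6%), against 23.6% and 12.8% of other genes in such domains. These other genes include some records whose start shares a promoter with a ZNF gene. ZNF genes of other chromosomes in H3K9me3 domains were closer, with H3K4me3 on 33 of 45 in knockdown (73.3%) and 16 of 29 in control (55.2%), and H3K27ac on 53.3% in knockdown and 41.4% in control. Domains are long and the peaks are narrow, so both marks need not lie on the same nucleosomes or in the same cells.

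The H3K4me3 folds of the 2 kinds of position lay close together in knockdown and further apart in control. The positions do not hold the same genes in both lists. The 62 genes with H3K9me3 in the control list only count as inside in control and as outside in knockdown. The median fold over marked ZNF promoters inside H3K9me3 domains was 43.2 in knockdown and 20.2 in control. Outside such domains it was 42.8 over 90 promoters in knockdown and 12.7 over 38 in control. Over all marked protein-coding promoters it was 35.3 in knockdown and 18.4 in control, so the control value outside lay below that of all genes. ZNF317, in cluster 2, had H3K4me3 folds of 68.0 in knockdown and 55.3 in control. ZNF431, in cluster 4, had 41.8 in knockdown and 50.4 in control. Both lay in H3K9me3, LMNB1 and PML domains in every list. ZNF557, a scattered gene in no domain, had 36.3 in knockdown and 47.7 in control.

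The same 211 promoters had H3K4me3 in both lists, so none was in 1 list only (background 5.21% for the knockdown list only, among genes unmarked in control, and 0.154% for the control list only, among genes marked in control). Fold enrichments were higher in the knockdown list over the whole genome: the median ratio of knockdown to control fold was 1.89 for H3K4me3 and 1.38 for H3K27ac over all promoters marked in both lists. Over the ZNF promoters these ratios were 2.05 and 1.42. The median ratios lay close together whatever became of H3K9me3. For H3K27ac it was 1.42 over 43 promoters that left the H3K9me3 domains, 1.38 over 110 that stayed and 1.44 over 29 in neither list. For H3K4me3 it was 2.04 over 53 that left, 1.97 over 120 that stayed and 2.24 over 37 in neither. The quartiles of these groups overlap, for H3K27ac 1.08 to 2.01 in those that left and 1.08 to 2.03 in those that stayed. Folds of lists made from separate libraries are not on a common scale, so the medians over all genes are the values to read them against.

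H3K27ac was listed at a few ZNF promoters in knockdown only. Of 62 promoters with no control peak, 11 (17.7%) had one in the knockdown list, against 7.22% of all genes unmarked in control and 14.7% of the ZNF genes on other chromosomes. ZNF575 alone had a peak in the control list only, with a fold of 2.76 (1 of 184, background 1.43%). The 11 were led by ZNF530, with a fold of 10.0 in the knockdown list, and ZNF17, with 5.74. ZNF607 had 4.29, ZNF296 4.06, ZNF283 3.96, ZNF586 3.60, ZNF324B 3.55, ZNF579 3.03, ZNF256 2.92 and ZNF324 2.86. The 11th, ZNF77 at 2.67, is named after its values were seen because the rule for named genes took 10. The folds of 10 of the 11 lie below 6.68, the median over all peaks of the knockdown list.

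Each of the 11 had H3K4me3 in both lists. ZNF530 had an H3K4me3 fold of 75.6 in knockdown and 11.4 in control, a ratio of 6.60, the highest of the 211. ZNF17 had 74.7 in knockdown and 25.9 in control. Of the 11, 6 lie in cluster 10. By H3K9me3, 5 of the 11 left the domains, ZNF607 stayed and 5 were in neither list. As shares of the promoters with no control H3K27ac peak, these were 5 of 19 that left the H3K9me3 domains, 1 of 33 that stayed and 5 of 10 in neither. Over all protein-coding genes the same shares were 16 of 791 that left (2.02%), 25 of 823 that stayed (3.04%) and 640 of 7748 in neither (8.26%). The class in neither list had the highest share in both sets, and the numbers of ZNF genes are small.

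Outside these classes, the highest H3K27ac folds belonged to genes of varied position. ZNF181, in cluster 5, had 37.0 in knockdown and 44.8 in control, the highest control value. ZNF460, in cluster 10, had 38.5 in knockdown and 38.6 in control, nearly equal folds at a start that lay in H3K9me3 and LMNB1 domains of the control lists only. ZNF576, in cluster 7 and in no domain, had 58.6 in knockdown and 31.6 in control. The neighbouring gene IRGQ, which is not a ZNF gene, had the same folds, so these peaks are shared.

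No promoter peak of either mark was found in any list for 35 ZNF genes, and 23 of these lay in an H3K9me3 domain of both lists. Over all 19970 protein-coding genes, 7027 had no such peak, a larger share than among the ZNF genes. Cluster 4 held 10 of the 35, all in a row: ZNF208, ZNF257, ZNF676, ZNF729, ZNF98, ZNF492, ZNF99, ZNF723, ZNF728 and ZNF730. The ZNF genes on either side of the row, ZNF43 before it and ZNF724 and ZNF91 after it, were marked. The others in H3K9me3 domains of both lists were ZNF536, ZNF177, ZNF560, ZNF382, ZNF875, ZNF793, ZNF534, ZNF578, ZNF677, ZNF582, ZNF667, ZNF471 and ZNF835. Another 16 genes had H3K4me3 in both lists and H3K27ac in neither, among them ZNF14, ZNF331 and ZNF671. That class was not counted over all genes. In neither condition did a ZNF promoter have H3K27ac without H3K4me3, a class that was not counted over all genes either. It occurred among other genes inside the cluster spans, for example at FPR1 in both conditions.

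The unmarked promoters of cluster 4 had best matches among its marked promoters between 51.1% and 86.0% identity. Over all pairs of promoters in cluster 4, the median identity was 69.8%, while the medians of the other clusters lay between 50.8% and 56.1%. The ZNF208 promoter was most like that of the marked gene ZNF91, with 86.0% identity. ZNF257 and ZNF98 were most like the marked ZNF85, with 82.1% and 81.3%. ZNF676 was the exception, with a best match of 51.1% to ZNF737 and 2 CpG dinucleotides. Related copies can share reads or lose them, and the sources used here do not give how reads with several matches were counted, so the part of read placement in these empty promoters was not tested.

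Across all 246 promoters of 300 bases, the median was 20 CpG dinucleotides, against 23 over all protein-coding genes. Genes with no peak in any list had a median of 16 among ZNF genes and 6 over all genes. Genes with H3K4me3 in both lists had a median of 20 among ZNF genes and 28 over all genes. Pooled over clusters, the gap between unmarked and marked promoters was thus smaller within the ZNF family. Cluster 9 had the highest median, 30, and cluster 4 the lowest, 10. The pooled gap did not hold in cluster 4, where most unmarked genes lay above the median of the cluster and ZNF676, with 2, lay below it. The 11 genes with H3K27ac in the knockdown list only had a median of 20, the same as those with H3K27ac in both lists.

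The proteins differ along the chromosome as well. A script counted C2H2 fingers in the translated coding sequence of each canonical transcript and looked for KRAB-like motifs. The median was 12 fingers, the lowest count was 1 in ZNF428 and the highest 36 in ZNF208. A KRAB-like motif was found in 208 of 246 proteins (84.6%). It was found in 133 of the 143 proteins whose genes lay in H3K9me3 domains of both lists (93.0%) and in 59 of the 62 in the control list only (95.2%), against 15 of the 40 in neither (37.5%). Genes in PML domains had the motif in 93.3% of cases and those outside in 67.5%. Cluster 9 had the lowest share of the clusters, 37.5%, and 7 of its 16 genes lay in H3K9me3 domains.

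Of 18 ZNF genes with a published role, 13 lay in a PML domain, 11 in a knockdown and 17 in a control H3K9me3 domain, and 5 in a knockdown and 7 in a control LMNB1 domain. H3K4me3 marked 15 of them in both lists and H3K27ac 13 in both, shares close to those of the whole family. ZNF91 and ZNF93, which silence retrotransposons, lay in H3K9me3, LMNB1 and PML domains throughout. ZNF91 had H3K27ac folds of 26.2 in knockdown and 18.8 in control, and ZNF93 had 17.8 in knockdown and 13.3 in control. The 6 of the 18 that were in the control H3K9me3 list only were ZNF417, ZNF587, ZNF274, ZNF671, ZNF304 and ZNF224. ZNF224 had H3K27ac folds of 12.1 in knockdown and 3.81 in control, a ratio of 3.18 and the highest among the genes that left the H3K9me3 domains. ZNF304 had H3K27ac folds of 10.5 in knockdown and 7.42 in control. ZNF350, a partner of BRCA1 also known as ZBRK1, had H3K27ac folds of 9.56 in knockdown and 9.66 in control, with H3K9me3 in both lists. ZNF382, ZNF471 and ZNF534 had no promoter peak in any list and H3K9me3 in both. ZNF382 and ZNF471 are known as genes whose promoters are often methylated in tumours. DNA methylation was not measured here, and its part in the missing peaks was not tested. ZNF675, an inhibitor of TRAF6 signalling, had H3K27ac folds of 13.9 in knockdown and 16.9 in control. ZNF146, which has fingers and no KRAB domain, lay in no domain and had H3K27ac folds of 23.2 in knockdown and 9.31 in control. Its start lies 441 bp from that of ZNF565, so their promoter peaks are shared, as are those of 4 other pairs of ZNF genes that start within 2 kb of each other.

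A fixed list of genes that work with KRAB zinc finger proteins was marked as active in both conditions. All 18 genes of that list had H3K4me3 and H3K27ac promoter peaks in both lists, and none lay in an H3K9me3 or LMNB1 domain. Over all protein-coding genes, H3K4me3 marked 63.7% in knockdown and 61.8% in control, and H3K27ac 53.7% in knockdown and 50.8% in control. PPHLN1, a subunit of the HUSH complex, was the one of the 18 in a PML domain. TRIM28 had H3K27ac folds of 6.63 in knockdown and 4.19 in control. EHMT1, which writes H3K9 methylation in euchromatin, had 12.2 in knockdown and 4.84 in control. TASOR, another HUSH subunit, had 21.1 in knockdown and 6.10 in control, and the HP1 gene CBX3 had 41.1 in knockdown and 41.6 in control. Lower in knockdown were also ATRX (21.4 against 25.3), MORC2 (7.65 against 9.92) and CBX1 (3.09 against 3.26). All other genes of the list had higher H3K27ac folds in knockdown. The median ratio of knockdown to control fold was 1.38 over all promoters with H3K27ac in both lists. The PML gene itself kept its promoter peaks, with H3K4me3 folds of 58.3 in knockdown and 21.9 in control, and a promoter mark cannot check a knockdown that acts on RNA. Of 8 markers of the mesenchymal cell line, 7 had both promoter marks in both lists, SPARC being the exception. Of 6 luminal markers, H3K4me3 marked 4 in knockdown and 3 in control and H3K27ac marked 2 in knockdown and 0 in control. Of 5 markers of other cell types, COL1A1 alone was marked.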

How the data were processed

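Cells of the line MDA-MB-231 were cross-linked with a glutarate reagent and formaldehyde before ChIP, per the labels' protocols. The build hg38 and the tools deepTools, MACS2 2.2.7.1, BWA 0.7.12-r1039 and Picard 1.104 stand in the submitters' processing notes, with no role. Each domain has a score without a unit in the authors' deposited lists, and EDD is named as the caller in the file names only. The fold enrichment of a peak is a ratio and comes as deposited, in the MACS2 layout. The deposited lists add the -log10 q-value of each peak, 1.3 at the lowest. Peak names in the deposited lists show that the authors called replicates 1 and 2 jointly. The marks ct and pml in the peak lists were taken to mean control and PML knockdown, which is assumed. The LMNB1 and H3K9me3 domain lists without a condition in their names were taken as control because a list marked shPML stands beside each, which is also assumed and underlies every domain comparison. As depth is unknown, no counting interval could be given.

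Overlaps were computed in Python 3.11.15 (pandas 2.3.3, numpy 2.4.6), gave the same genes with bedtools 2.31.1, and the functions were tested on simulated data. Starts and coding sequences came from GENCODE 44, and biopython 1.88 aligned promoters and translated proteins. RefSeq had a promoter for 216 of the 246 genes. A finger was C, 2 to 4 residues, C, 12 residues, H, 3 to 5 residues, H. Genes were named by a rule: the highest folds in the control list, up to 10 per list among 1-list peaks, up to 5 per cluster among genes in 1 domain list only, genes nearest a border, up to 6 unmarked genes per cluster in H3K9me3 domains, and the fixed lists. Others are named where a small count or a sequence comparison needed it, after their values were seen. The genes and lists were chosen with earlier results of these data known. Not analysed here were the H3K27me3 and input libraries. Alternatives covered promoter width, peak and domain thresholds, border distance, gene starts, symbols and cluster gaps.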

Additional observations from a re-analysis of the deposited data

How the results depend on the processing

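Of 161 alternative counts, 154 stayed within 1.5 times the reported count. The 7 that moved are all counts of 0 to 2 genes. Genes with H3K4me3 in the knockdown list only numbered 1 with promoters of 500 bp on either side and 2 with the 5′ end of the gene record, and in the control list only 1 with the same number of peaks from both lists, against 0. Genes with H3K27ac in the control list only numbered 2 with a -log10 q of at least 5, 2 with the same number of peaks and 0 with the 5′ end of the gene record, against 1. Genes with H3K9me3 in the knockdown list only numbered 2 when at least 50% of the gene body had to lie in domains, against 1. The cause was not tested. With the same number of H3K9me3 domains by score from both lists, an alternative chosen after seeing the data, 144 genes lay in knockdown and 199 in control domains and 56 were in the control list only. Cluster 5 then left the control list, whose lowest score became 21.6, and clusters 7 and 10 still had 20 and 34 such genes. A gap of 250 kb gave 13 clusters with 221 genes, a gap of 1 Mb gave 9 with 235, and a minimum of 3 genes gave 11 with 235. No paired analysis was possible because each target and condition has 1 list and none for a single replicate, and for the same reason no replicate could be left out. Unknown depth limits what a missing peak or domain can show.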

Other observations

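Cluster 6 held 23 knockdown and 3 control H3K27ac peaks away from promoters. Of the knockdown peaks, 16 lay in a run at chr19:36269812-36308624 (hg38), between ZNF146 and ZNF566, at a median spacing of 2516.5 bp (2294 to 2739 bp). Their folds lay between 2.08 and 4.62. The control list had 1 peak there, neither list had an H3K4me3 peak, and no protein-coding gene starts there. PML domains covered none of the run, and H3K9me3 domains covered 35.1% of it in knockdown and 0% in control. That difference is 1 domain edge, at chr19:36295001 in knockdown and chr19:36317001 in control. The bounds fall on multiples of 35 kb and 23 kb, so it cannot be told from a difference in resolution. In the hg38 sequence, 91.1% of the 30-base words of the run had occurred earlier in it, most often 2535 bp before. A second run of 3 knockdown peaks lay at chr19:37269890-37275572, between ZNF383 and ZNF875, at a median spacing of 2559.5 bp, inside H3K9me3 domains of both lists, with repeated words most often 2527 bp apart. The sources used here do not give how reads with several matches were placed in these repeats, and the part of that placement in the peaks was not tested.

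ZNF genes on other chromosomes had the opposite order of H3K9me3 counts to those on chromosome 19, with 45 of 263 in knockdown and 29 in control domains, of which 23 were in the knockdown list only and 7 in the control list only.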
